A study of Mus musculus with 27 samples.

Results

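CD11b+ cells sorted from the prefrontal cortex (PFC) of mice that went through chronic unpredictable mild stress (CUMS) were compared with and without environmental enrichment. The 6 libraries were all the PFC libraries of the enrichment experiment, out of 27 in the series. The 3 EE libraries came from mice given the CUMS protocol with environmental enrichment, and the 3 VEH libraries from mice given the CUMS protocol with vehicle. The labels name the strain C57BJ6 for all 6 and give no age, and they do not say whether EE mice also received vehicle. Both groups were stressed, so no unstressed animal enters the comparison. RNA was polyA-selected and sequenced in stranded, paired-end libraries. Of 55421 genes in the count table, 15019 had 10 or more counts in 3 or more of the 6 libraries and were tested. Nothing in the labels says that the replicates came from different animals. The p-values therefore cover only the spread between these samples, which may be technical.

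CD11b, the product of Itgam, is an integrin chain on the surface of microglia, the resident macrophages of the brain, and also of border macrophages, monocytes and neutrophils. Chronic mild stress is used in rodents as a model of depression-like behaviour, and enrichment means housing with added objects, space or company. Microglia sense neuronal activity and damage through receptors such as P2ry12 and Cx3cr1. Stimulated microglia can transiently transcribe immediate early genes and cytokines such as Il1b and Tnf.

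Library totals were 20.7, 20.2 and 20.7 M counts in EE and 21.6, 20.5 and 23.9 M counts in VEH. Levels are given as CPM, counts scaled to a common library size with TMM. Microglial markers dominated: Cx3cr1 had 7671, 7332 and 7356 CPM in EE, against 8970, 7900 and 6777 CPM in VEH. The libraries also differed within groups. The first principal component, 45.1% of the variance, set EE 1 and VEH 1 apart from the other 4 libraries. Its leading genes were those of the choroid plexus, the epithelium that makes cerebrospinal fluid. The choroid plexus and ependyma list summed to 12.5, 1160 and 235 CPM in EE and to 1.78, 732 and 736 CPM in VEH, so it separated libraries and not the groups. Cd3e, a T cell marker, had 0 counts in all 3 EE libraries and in VEH 1 and VEH 2, and 3 counts in VEH 3. Other lymphocyte markers were present at low counts in every library. Cd79a had 24, 13 and 6 counts in EE, against 23, 11 and 16 counts in VEH. Nkg7 had 11, 8 and 3 counts in EE, against 11, 9 and 9 counts in VEH. In bulk RNA, more cells of a type and more RNA per cell cannot be told apart.

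No gene passed an adjusted p of 0.05 between EE and VEH (0 higher and 0 lower of 15019, edgeR's quasi-likelihood test with Benjamini-Hochberg adjustment, smallest adjusted p 0.354). At an unadjusted p under 0.05 there were 649 genes (4.32% of those tested), 420 of them higher in EE (2.8%) and 229 lower (1.52%). DESeq2's Wald test, run on the same libraries, called 17 genes at an adjusted p under 0.05, 13 of them higher (0.0866% of the genes tested) and 4 lower in EE (0.0266%). Those higher included Hba-a1, Hbb-bs, Alas2, Hba-a2, Hbb-bt, Apol11b, Il1a, Plk3, H2-Q5, H2-Q4, Acod1 and Gadd45a. The 4 lower were Dmrtb1, Gm6277, Mettl18 and Rn7sk. Without EE 1, edgeR called 3 genes, all higher in EE: Alas2, Hba-a1 and Hbb-bs. Without EE 1 and VEH 1 together it called 1 gene, higher in EE. In the following, a gene is said to separate the groups when its lowest value in one group exceeds its highest in the other. In EE against VEH, 823 genes separated the groups with EE higher (5.48%) and 602 with EE lower (4.01%), and 48% of all genes had a log2 fold change above 0, with a median of -0.01.

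The 20 genes of smallest p in this comparison included red-cell genes, with Hba-a1, Hbb-bs and Alas2 the first 3. Hba-a1 and Hbb-bs encode adult alpha and beta globin, the chains of haemoglobin, and Alas2 is the erythroid enzyme that starts haem synthesis. Because these genes led the comparison, the 250 bases before the RefSeq start of each are printed (5′ to 3′ on the gene's strand, GRCm38.p6). Btg2, an antiproliferative immediate early gene described below, is added as the immediate early gene that separated the groups and holds a full cyclic AMP response element. Capitals mark 3 motifs on either strand in the red-cell genes. One is CACCC, known from sites of the erythroid factor KLF1. Another is CCAAT, bound by several general factors. The last is AGATAA, a form of the site of the erythroid factor GATA1. In Btg2 they mark TGACGTCA, the response element just named. The stretches lie at chr11:32283422-32283671 (Hba-a1, plus strand), chr7:103827929-103828178 (Hbb-bs, minus strand), chrX:150547167-150547416 (Alas2, plus strand) and chr1:134079156-134079405 (Btg2, minus strand). The GENCODE M21 gene starts lie 161, 168, 42 and 35 bases away from these RefSeq starts, in that order.
Hba-a1: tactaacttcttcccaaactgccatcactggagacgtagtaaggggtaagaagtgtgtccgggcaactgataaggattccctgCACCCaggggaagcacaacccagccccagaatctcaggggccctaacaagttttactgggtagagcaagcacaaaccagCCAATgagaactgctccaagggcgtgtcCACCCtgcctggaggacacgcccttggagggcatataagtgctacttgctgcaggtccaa
Hbb-bs: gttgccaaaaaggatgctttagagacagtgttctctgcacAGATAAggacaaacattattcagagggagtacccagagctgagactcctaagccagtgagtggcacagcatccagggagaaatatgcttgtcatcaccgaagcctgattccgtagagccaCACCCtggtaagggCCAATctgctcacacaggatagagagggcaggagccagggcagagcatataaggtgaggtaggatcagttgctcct
Alas2: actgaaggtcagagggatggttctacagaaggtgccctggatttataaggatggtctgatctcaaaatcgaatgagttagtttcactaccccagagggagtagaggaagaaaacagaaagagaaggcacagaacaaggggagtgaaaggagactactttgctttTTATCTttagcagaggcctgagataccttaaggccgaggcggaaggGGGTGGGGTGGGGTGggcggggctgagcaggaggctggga
Btg2: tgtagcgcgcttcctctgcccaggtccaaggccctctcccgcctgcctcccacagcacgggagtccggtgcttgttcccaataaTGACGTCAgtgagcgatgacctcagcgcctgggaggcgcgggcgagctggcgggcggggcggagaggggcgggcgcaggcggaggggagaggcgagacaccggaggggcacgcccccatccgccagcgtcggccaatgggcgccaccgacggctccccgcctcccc

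Of 27025 mouse promoters of this length, 51.4% hold CACCC on either strand. The KLF1-type motif stood in 5 of the 6 red-cell genes with a promoter in the table. The share of all promoters with CCAAT was 34.3%, and 5 of the 6 red-cell genes held it. For AGATAA the share was 10.2%, against 2 of the 6 red-cell genes. Other forms of the GATA1 site were not searched, so a stretch without AGATAA may still hold one. The printed Hba-a1 stretch, for example, holds tgataa, which differs from AGATAA only in its first base. The 6 include the globin pairs Hba-a1 with Hba-a2 and Hbb-bs with Hbb-bt, so they are not independent of each other. Of all promoters, 1.61% hold the cyclic AMP response element. TGACGTCA was found in 3 of the 25 immediate early genes with a promoter, namely Btg2, Dusp1 and Plk2. A match describes the letters in the window and does not show that a factor binds there. Nor does it show in which cells the transcripts were made.

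Red-cell transcripts were higher in every EE library than in any VEH library for 6 of the 8 tested genes of the erythroid list. That is 75%, beside 5.48% of all genes. Hba-a1 had 45.9, 247 and 126 CPM in EE, against 11.1, 7.28 and 14.8 CPM in VEH. Hbb-bs had 124, 563 and 280 CPM in EE, against 37.4, 18.02 and 31.8 CPM in VEH. Alas2 had 11.4, 66.1 and 31.6 CPM in EE, against 2.52, 2.49 and 3.61 CPM in VEH. EE 2 was the highest and EE 1 the lowest EE library for all 3, and the groups did not overlap. Their log2 fold changes were 3.65 ± 0.56 (SE) for Hba-a1, 3.47 ± 0.55 for Hbb-bs and 3.65 ± 0.59 for Alas2, each with an edgeR adjusted p of 0.354. DESeq2 gave adjusted p-values of 1.01e-06, 2.66e-06 and 6.12e-06 for Hba-a1, Hbb-bs and Alas2.

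Hba-a2 and Hbb-bt, the second adult alpha and beta globin genes, had log2 fold changes of 3.54 ± 0.67 and 3.46 ± 0.67 (SE) and also separated the groups. They are near-identical copies of Hba-a1 and Hbb-bs, so the split of reads within each pair is uncertain. Slc4a1, the anion exchanger of the red-cell membrane, and Bpgm, which makes 2,3-bisphosphoglycerate, overlapped between the groups at log2 fold changes of 3.23 ± 1.30 and 0.56 ± 0.26 (SE), and both moved by more than 1.5 times when 1 library was left out (Slc4a1 5.69 without VEH 3 and 2.15 without EE 2, Bpgm 0.24 without EE 2). The list as a whole summed to 224, 1054 and 513 CPM in EE and 82.3, 45.7 and 71.7 CPM in VEH. All 8 tested members were above 0, with a median of 3.47, against 48% of genes and a median of -0.01 over all genes. Whether these transcripts came from the sorted CD11b+ cells or from red cells carried along with them was not tested.

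**Figure D1:**
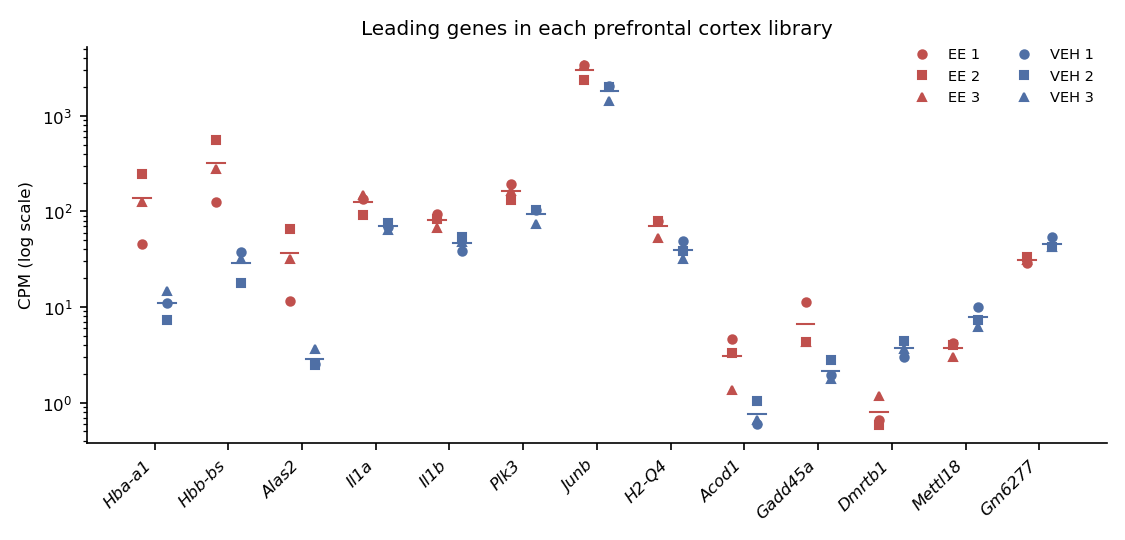
CPM of 13 genes in each PFC library on a log scale, EE left and VEH right of each gene, with a bar at the group mean and 1 marker shape per replicate number. The red-cell genes Hba-a1, Hbb-bs and Alas2 and the genes Il1a to Gadd45a lie higher in all EE libraries than in all VEH libraries, and Dmrtb1, Mettl18 and Gm6277 lie lower.

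Apol11b, a member of the apolipoprotein L family, was also among the 20 genes of smallest p. It had 15, 29 and 11 counts in EE and 0 counts in all 3 VEH libraries, with an edgeR adjusted p of 0.43. Every EE library was above every VEH library, at a level under 1.5 CPM. No fold is given, since it would rest on the 0 counts of VEH.

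Immediate early genes, the first genes transcribed after a cell is stimulated, all had a log2 fold change above 0 (28 of 28, median 0.72), and 7 of them separated the groups with EE higher, a share of 25% set against 5.48% of all genes. None passed the adjusted threshold, and 19 of the 28 had an edgeR unadjusted p under 0.05, all with EE higher, beside 2.8% of all genes. Several members followed the same libraries, so these genes are not independent of each other. Plk3, a stress-responsive kinase, had 194, 131 and 162 CPM in EE, against 104, 103 and 73.9 CPM in VEH, a log2 fold change of 0.80 ± 0.17 (SE, edgeR adjusted p 0.52). Junb, an AP-1 subunit, had 3376, 2348 and 3391 CPM in EE, against 2037, 1990 and 1420 CPM in VEH, a log2 fold change of 0.74 ± 0.19 (SE). For both genes EE 2 was the lowest EE library, VEH 3 was the lowest library of all, and the groups did not overlap.

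The same order held for Jun, the other common AP-1 partner, at 7326, 5099 and 7398 CPM in EE and 4797, 4417 and 3339 CPM in VEH. Zfp36, which encodes tristetraprolin and speeds the decay of cytokine mRNAs, had 4522, 3153 and 4858 CPM in EE and 2904, 2925 and 2132 CPM in VEH. Btg2 had 1471, 1080 and 1579 CPM in EE and 955, 977 and 779 CPM in VEH. Klf6 and Fosl2 were the other members that separated the groups. Fos and Egr1, named here after their values were seen because they are the usual markers of this class, did not. Fos had 4949, 3085 and 4597 CPM in EE, against 3127, 2621 and 1399 CPM in VEH, and Egr1 had 5349, 2899 and 4518 CPM in EE, against 3201, 2575 and 1113 CPM in VEH. In both, EE 2 lay below VEH 1, and VEH 3 was the lowest of all 6 libraries. Their log2 fold changes of 0.82 ± 0.29 and 0.89 ± 0.31 (SE) were 0.55 and 0.55 without VEH 3. The mean log2 CPM over the whole list was 8.61, 7.80 and 8.27 in EE, against 7.87, 7.73 and 6.88 in VEH, so EE 2 lay within the range of VEH. The median of the list was 0.51 without VEH 3 and 0.91 without EE 2. Whether these transcripts were made in the animal or after tissue was taken was not tested.

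**Figure D2:**
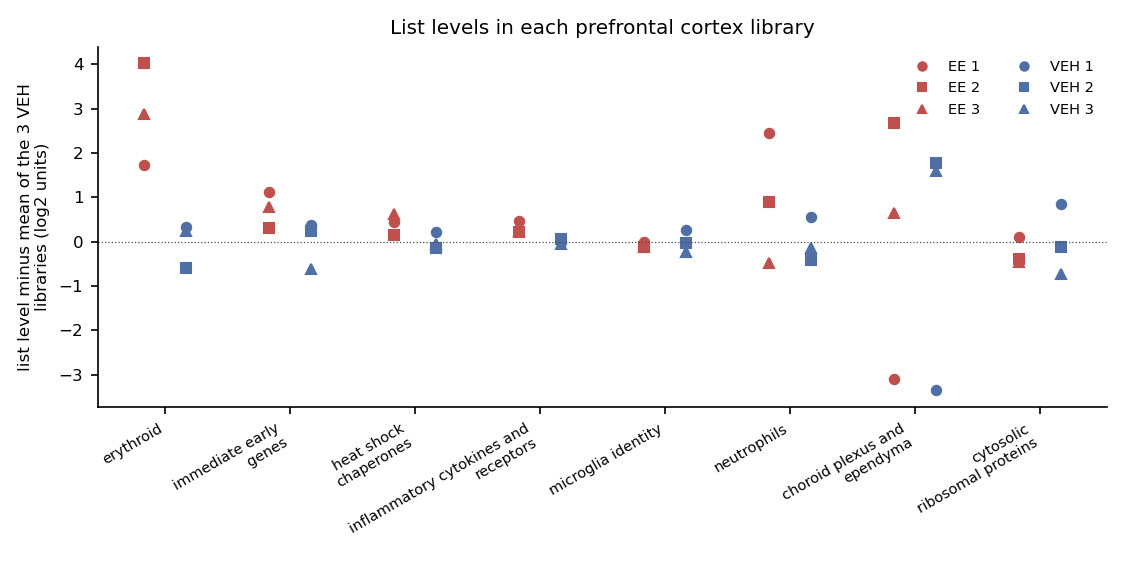
Mean log2 CPM of 8 gene lists in each PFC library, as the difference from the mean of the 3 VEH libraries, EE left and VEH right. The erythroid list separates the groups, the immediate early list does not because EE 2 (7.80) lies below VEH 1 (7.87), and the choroid plexus list sets EE 1 and VEH 1 below the other 4 libraries.

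Cytokine genes were among the leading genes, with Il1a and Il1b in the first 20. Both encode interleukin-1 ligands, which act on the same receptor. Il1a had 136, 92.5 and 148 CPM in EE, against 69.4, 76.1 and 63.5 CPM in VEH (log2 fold change 0.85 ± 0.18 SE, edgeR adjusted p 0.52). Il1b had 93.4, 84.2 and 66.6 CPM in EE, against 38.6, 54.0 and 48.0 CPM in VEH (0.80 ± 0.19 SE, edgeR adjusted p 0.835). In both genes the groups did not overlap, and for Il1a the nearest libraries were EE 2 and VEH 2. Of 19 tested cytokine and receptor genes, 8 separated the groups with EE higher (42.1%, beside 5.48% of all genes) and 0 with EE lower (4.01% of all genes). Beside the interleukin-1 genes these were Tnf, the colony-stimulating factor Csf1, oncostatin M (Osm), Tnfaip2, the anti-inflammatory cytokine Il10 and its receptor Il10ra. Il10 was close to the floor, with 12, 15 and 32 counts in EE, against 4, 12 and 14 counts in VEH. Its nearest libraries, EE 1 and VEH 2, had equal counts and differed only after scaling (0.608 against 0.575 CPM). Tnf had 100.3, 53.9 and 50.8 CPM in EE, against 49.0, 38.3 and 18.2 CPM in VEH. EE 3 was thus only slightly above VEH 1 for Tnf, and its log2 fold change of 0.96 ± 0.35 (SE) was 0.58 without EE 1 and 0.64 without VEH 3. Csf1, a growth factor for microglia, had 53.7, 61.3 and 62.5 CPM in EE, against 50.04, 47.6 and 38.6 CPM in VEH. The median of the list was 0.26, and 0.17 without VEH 2.

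Of 19 NF-kB subunits and inhibitors, 4 separated the groups with EE higher (21.1%, beside 5.48% of all genes) and 1, the kinase regulator Ikbkg, with EE lower (5.26%, beside 4.01%), with a median of 0.17. Tnfaip3, which encodes the NF-kB inhibitor A20, had 368, 216 and 331 CPM in EE, against 193, 201 and 128 CPM in VEH. Nfkbiz, an inducible nuclear IkB protein, had 657, 287 and 472 CPM in EE, against 283, 241 and 119 CPM in VEH, a log2 fold change of 1.14 ± 0.35 (SE). EE 2 was only just above the highest VEH library in both, and VEH 3 was the lowest library, as in the immediate early genes. Tnip1, an A20 partner, and the subunit Nfkb1 also separated the groups. Among 20 chemokines and chemokine receptors, Ccrl2, Cxcl2 and Cxcl1 separated the groups with EE higher (15%, beside 5.48% of all genes). In the same list 1 member separated them with EE lower (5%, near the 4.01% of all genes). The median of 0.24 was 0.00 without EE 2. Acod1, which makes the macrophage metabolite itaconate, had 4.61, 3.28 and 1.37 CPM in EE, against 0.594, 1.05 and 0.661 CPM in VEH. Toll-like receptor, inflammasome and adaptor genes had 1 member that separated the groups with EE higher (the kinase Irak4) and 1 with EE lower (Tlr6) out of 25, with 11 above 0. Type I interferon genes had 1 with EE higher (the RNA sensor Ifih1) and 0 with EE lower of 25, also with 11 above 0. Each of these counts of 1 is 4% of its list, near the shares of all genes.

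Neutrophil and monocyte markers, the other CD11b+ blood cells, were highest in EE 1. All 14 neutrophil and all 12 monocyte genes were above 0, with medians of 1.39 and 1.28, yet none separated the groups. The neutrophil list summed to 4037, 2125 and 1437 CPM in EE, against 1845, 1400 and 1544 CPM in VEH, and the monocyte list to 415, 159 and 57.9 CPM in EE, against 140, 82.4 and 63.0 CPM in VEH. By mean log2 CPM over the list, EE 1 and EE 2 lay above every VEH library and EE 3 below every VEH library for both lists. These levels were 6.71, 5.16 and 3.79 for neutrophils in EE, against 4.82, 3.84 and 4.13 in VEH. Without EE 1 the medians were 0.23 and 0.19, and the monocyte median was 0.83 with the replicate number as a block. Ltf, a granule protein of neutrophils, had 476, 124 and 38.0 CPM in EE, against 69.6, 31.6 and 38.4 CPM in VEH. The part of these cells in the cytokine and immediate early values was not tested. Oligodendrocyte genes had 10 of 12 members above 0 and none that separated the groups, with a median of 0.63 that was 0.06 without EE 2. Astrocyte genes had 11 of 14 above 0 with a median of 0.18 (-0.10 without EE 2), and endothelial and mural genes 3 of 13 with a median of -0.13 (0.20 without VEH 2).

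Heat shock chaperones, which refold damaged proteins, had the next highest median of the lists of gene function: 18 of 20 members were above 0, 5 separated the groups with EE higher (25%, beside 5.48% of all genes) and 0 with EE lower (4.01% of all genes), and the median was 0.41. Hsp90ab1, the constitutive cytosolic HSP90, had 1114, 887 and 1099 CPM in EE, against 835, 628 and 628 CPM in VEH (log2 fold change 0.57 ± 0.16 SE). Hsph1, a nucleotide exchange factor for HSP70, had 59.0, 47.6 and 86.3 CPM in EE, against 32.9, 26.7 and 36.7 CPM in VEH (1.001 ± 0.288 SE). Neither gene overlapped between the groups, and EE 2 was again the lowest EE library. The other 3 that separated the groups were Hspa1a, Hspb1 and Hspa4l. Hspa8, the constitutive HSP70, had 1771, 1178 and 1778 CPM in EE, against 1228, 898 and 879 CPM in VEH, so EE 2 lay below VEH 1. The edgeR adjusted p was 0.976 for all 3 genes. Gadd45a, a DNA-damage and growth-arrest gene, had 11.4, 4.30 and 4.30 CPM in EE, against 1.93, 2.78 and 1.79 CPM in VEH, a log2 fold change of 1.62 that was 0.99 without EE 1. In the integrated stress response list, 1 of 18 members (Sesn2) was higher and 1 (Shmt2) lower without overlap. Each is 5.56% of the list, near the 5.48% and 4.01% of all genes.

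The MHC class I genes H2-Q4 and H2-Q5 stood in the first 20. H2-Q4 is annotated as protein-coding and H2-Q5 as a polymorphic pseudogene. H2-Q4 had 78.5, 78.8 and 53.1 CPM in EE, against 48.5, 39.0 and 31.7 CPM in VEH, and H2-Q5 had 6.64, 11.3 and 6.25 CPM in EE, against 3.66, 3.31 and 2.76 CPM in VEH. Both separated the groups, at log2 fold changes of 0.82 ± 0.18 and 1.31 ± 0.30 (SE). The H2-Q genes are close paralogs, so reads may be split between them and their neighbours. H2-K1, a classical class I gene, separated the groups at 641, 743 and 553 CPM in EE, against 542, 426 and 339 CPM in VEH. It was the only one of the 16 tested genes of the class I presentation list to do so (6.25%, near the 5.48% of all genes). That list leaves out the H2-Q genes. The median of that list was 0.03, and it ran from -0.12 to 0.14 with 1 library left out.

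Other genes of the first 20 with EE higher were Ube2o, Dusp18 and Mrc2. Ube2o is a ubiquitin-conjugating enzyme known for clearing proteins during red-cell maturation, and it had 48.2, 48.4 and 47.3 CPM in EE, against 26.5, 30.1 and 36.7 CPM in VEH. Mrc2, an endocytic collagen receptor, had 200, 172 and 172 CPM in EE, against 136, 138 and 129.6 CPM in VEH. Dusp18 is a dual-specificity phosphatase and had 31.0, 12.4 and 27.3 CPM in EE, against 12.1, 10.6 and 5.91 CPM in VEH. In Dusp18, EE 2 was close to VEH 1, while Ube2o and Mrc2 left a clear gap between the groups.

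Among the first 20 genes, Dmrtb1, Gm6277 and Mettl18 were lower in EE. Dmrtb1, a DM-domain transcription factor studied in the testis, had 0.659, 0.580 and 1.17 CPM in EE, against 3.02, 4.41 and 3.65 CPM in VEH, a log2 fold change of -2.19 ± 0.44 (SE, edgeR adjusted p 0.52). Mettl18, a histidine methyltransferase, had 4.25, 4.01 and 2.98 CPM in EE, against 10.1, 7.28 and 6.26 CPM in VEH. Gm6277, a predicted gene, had 28.7, 33.3 and 31.0 CPM in EE, against 53.6, 42.5 and 42.2 CPM in VEH. None of these 3 overlapped between the groups. For Gm6277, 29.7% of the exon bases lie opposite exons of another gene, and the strand setting of the counting is not stated, so its reads may include those of that gene. Rn7sk, a nuclear RNA that lacks a polyA tail, had 6.18, 7.10 and 4.15 CPM in EE, against 13.6, 8.77 and 31.7 CPM in VEH, and its log2 fold change of -1.64 was -0.95 without VEH 3.

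Genes for translation and respiration lay below 0 as whole lists, which depended largely on VEH 1. Of 85 cytosolic ribosomal protein genes 0 were above 0, with a median of -0.38, yet 0 separated the groups. Their sum was 25136, 17271 and 16232 CPM in EE, against 41363, 21047 and 13134 CPM in VEH, so VEH held both the highest and the lowest library. The median was 0.19 without VEH 1, -0.69 without VEH 3, -0.59 without EE 1 and -0.25 with the replicate block. Of 78 nuclear genes of oxidative phosphorylation 4 were above 0 (median -0.25, but 0.03 without VEH 1 and -0.45 without VEH 3), and 4 separated the groups with EE lower (5.13%, near the 4.01% of all genes), namely Ndufb2, Ndufa12, Ndufs3 and Ndufb4. Of 25 proteasome genes 3 were above 0 (median -0.21, but 0.02 without VEH 1 and -0.38 without VEH 3). In that list 2, Psma7 and Psma3, separated the groups with EE lower (8%, beside 4.01% of all genes). Of 77 mitochondrial ribosomal genes 9 were above 0 (median -0.17, but -0.03 without VEH 1 and -0.25 without VEH 3). There 4 separated the groups with EE lower (5.19%, near the 4.01% of all genes).

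**Figure D3:**
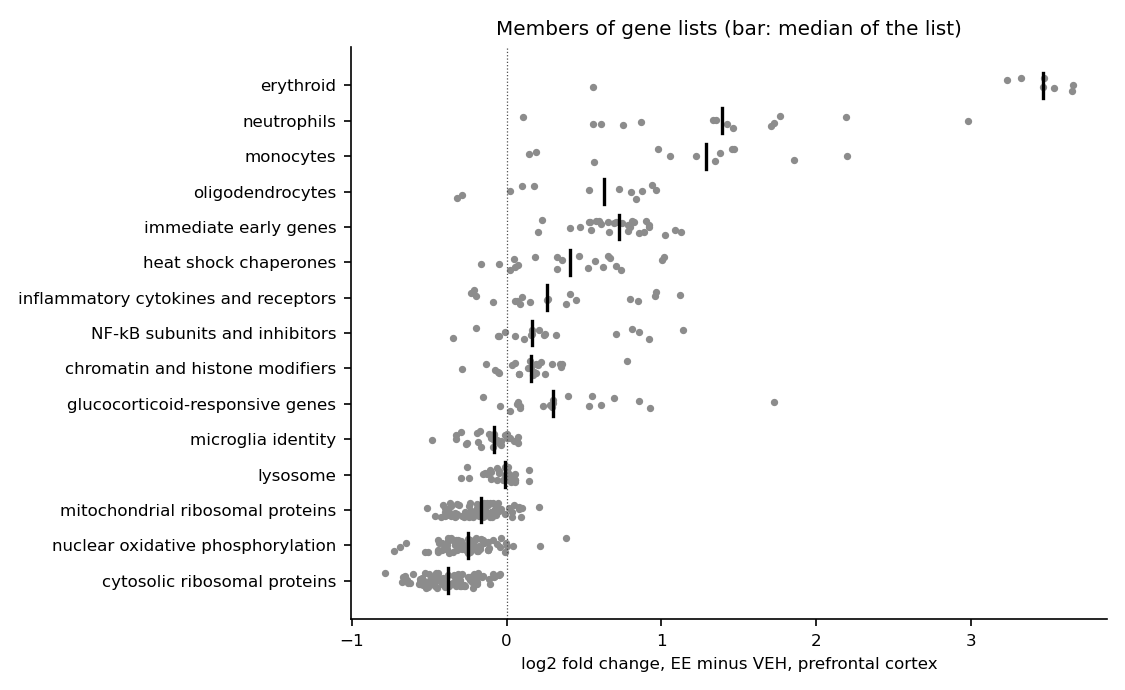
Log2 fold change of EE minus VEH in the PFC for each tested member of 15 gene lists (points, spread vertically for visibility), with a bar at the list's median. The erythroid list has a median of 3.47, the 28 immediate early genes all lie above 0, and all 85 cytosolic ribosomal protein genes lie below 0, which did not hold without VEH 1.

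Genes that define microglia showed no separation. Of 30 identity genes 9 were above 0 and 0 separated the groups in either direction, with a median of -0.08, which was 0.03 without VEH 1 and -0.22 without VEH 3. P2ry12, the ADP receptor of surveying microglia, had 2726, 2624 and 2849 CPM in EE, against 3752, 2992 and 2569 CPM in VEH, a log2 fold change of -0.18 ± 0.20 (SE). Tmem119, a microglial surface protein, had 3471, 2981 and 3185 CPM in EE, against 4181, 3305 and 2864 CPM in VEH (-0.10 ± 0.16 SE). For Cx3cr1, the fractalkine receptor, the log2 fold change was -0.08 ± 0.13 (SE). In all 3 genes VEH spanned a wider range than EE and enclosed it. Itgam, the gene of the sorted antigen, had 580, 493 and 459 CPM in EE, against 538, 502 and 481 CPM in VEH (0.01 ± 0.13 SE). For Itgam, 68.7% of the exon bases are shared with other annotated genes on the same strand, which limits its count.

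Disease-associated microglial genes had 9 of 25 members above 0, the lysosome list 14 of 30, complement 9 of 17 and MHC class II presentation 3 of 13. These lists had 2 members in all that separated the groups, both with EE higher: Csf1, counted above, and Tfeb, a regulator of lysosomal genes. Csf1 made up 4% of the disease-associated list and Tfeb 3.33% of the lysosome list, beside 5.48% of all genes. Of 15 growth and plasticity factors, Il1b, Tnf and Il10, already counted as cytokines, were the members that separated the groups (20%, beside 5.48% of all genes). The median was 0.02, which ran from -0.07 to 0.15 with 1 library left out. Igf1, a trophic factor released by myeloid cells, had 10.2, 8.21 and 4.74 CPM in EE, against 9.85, 6.61 and 7.93 CPM in VEH, and its log2 fold change was -0.08 ± 0.35 (SE).

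Stress-hormone targets gave 18 of 20 glucocorticoid-responsive genes above 0, with a median of 0.30 that was 0.49 without VEH 1. Only Tsc22d3, which encodes the glucocorticoid-induced leucine zipper, separated the groups (5% of the list, near the 5.48% of all genes). Fkbp5, a co-chaperone that restrains the glucocorticoid receptor, had 157, 142 and 204 CPM in EE, against 150, 131 and 191 CPM in VEH, a log2 fold change of 0.09 ± 0.19 (SE). Per1, a target of the receptor and of the clock, had 353, 223 and 396 CPM in EE, against 217, 229 and 225 CPM in VEH, so EE 1 and EE 3 were high and EE 2 lay among the VEH libraries. Its log2 fold change of 0.53 ± 0.25 (SE) was 0.35 without EE 3. Of 18 tested clock genes 10 were above 0, and the median of 0.06 ran from -0.09 to 0.10 with 1 library left out. In that list 2 genes separated the groups with EE higher (11.1%, beside 5.48% of all genes) and 1 with EE lower (5.56%, beside 4.01%). Dbp, an output gene, was lower in every EE library at 46.5, 46.2 and 56.2 CPM, against 72.4, 63.2 and 64.8 CPM in VEH. Arntl, which encodes the clock activator BMAL1, was higher at 12.2, 12.03 and 11.8 CPM in EE, against 7.77, 9.01 and 8.55 CPM in VEH. Nfil3, a repressor of the genes that Dbp activates, had 25.3, 10.9 and 13.3 CPM in EE, against 9.70, 8.53 and 7.15 CPM in VEH, a log2 fold change of 0.97 that was 0.52 without EE 1. The time of day at which tissue was taken is not given in the labels.

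Chromatin and histone modifiers had 20 of 25 members above 0, and 5 separated the groups with EE higher (20%, beside 5.48% of all genes), among them the acetyltransferase Ep300 and the remodellers Chd4, Arid1a and Smarca4. Ep300 had 419, 395 and 439 CPM in EE, against 284, 339 and 355 CPM in VEH, a log2 fold change of 0.36 ± 0.12 (SE). The median of this list was 0.16, and 0.05 without VEH 1. In cholesterol and fatty acid synthesis, 4 of 25 genes (16%, beside the same 5.48%) separated the groups with EE higher, among them Fasn and the regulators Srebf1 and Srebf2. Fasn, the fatty acid synthase, had 71.7, 80.6 and 61.6 CPM in EE, against 58.1, 60.7 and 53.1 CPM in VEH, so the gap between EE 3 and VEH 2 was small.

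The hippocampus (HC) offered the same contrast, 3 libraries of stressed mice with enrichment and 3 with vehicle. It shares no library with the PFC. The labels do not say whether the same mice gave both regions, so the HC values may not be independent of the PFC values. For Hba-a1, EE 2 was the highest EE library in both regions. There too 0 genes passed edgeR's adjusted threshold (smallest adjusted p 0.0695), with 1563 at an unadjusted p under 0.05 (10.4%). Red-cell genes had similar values in both regions. Hba-a1 had 90.8, 190.2 and 104 CPM in HC EE, against 14.2, 11.4 and 11.8 CPM in HC VEH, a log2 fold change of 3.37 ± 0.55 (SE). All 8 tested erythroid genes separated the HC groups with EE higher, against 9.39% of all genes with EE higher and 6.33% with EE lower, and their median was 3.10. Markers of other cell types differed between the HC groups too. All 10 choroid plexus and ependyma genes tested separated them with EE higher (median 3.72), as did 13 of 14 astrocyte genes (median 1.14) and 10 of 12 oligodendrocyte genes (median 1.64). Their part in the HC values, and so in any difference between the regions, was not tested. The difference between regions, HC minus PFC, was -0.29 ± 0.73 (SE) for Hba-a1 and -0.06 ± 0.81 for Alas2.

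Immediate early genes had 12 of 28 members above 0 in HC and none that separated the groups, with a median of -0.02. Plk3 had a log2 fold change of -0.04 ± 0.17 (SE) in HC, and the HC minus PFC difference was -0.84 ± 0.24 (edgeR adjusted p 0.999). The median difference over the list was -0.69, beside -0.01 over all genes. In a test of the difference itself, 0 genes passed with edgeR (625 at an unadjusted p under 0.05, 4.16%) and 0 with DESeq2, so no gene's EE effect was shown to differ between the regions. The smallest p-values belonged to Dmrtb1, Il1a, Gm15890, Cttn and Nsg2. Dmrtb1 had 3.59, 4.13 and 1.72 CPM in HC EE, against 1.42, 2.48 and 2.99 CPM in HC VEH, without the separation seen in the PFC. Il1a had 76.3, 111 and 81.0 CPM in HC EE, against 103, 114 and 123 CPM in HC VEH, with the groups overlapping.

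**Figure D4:**
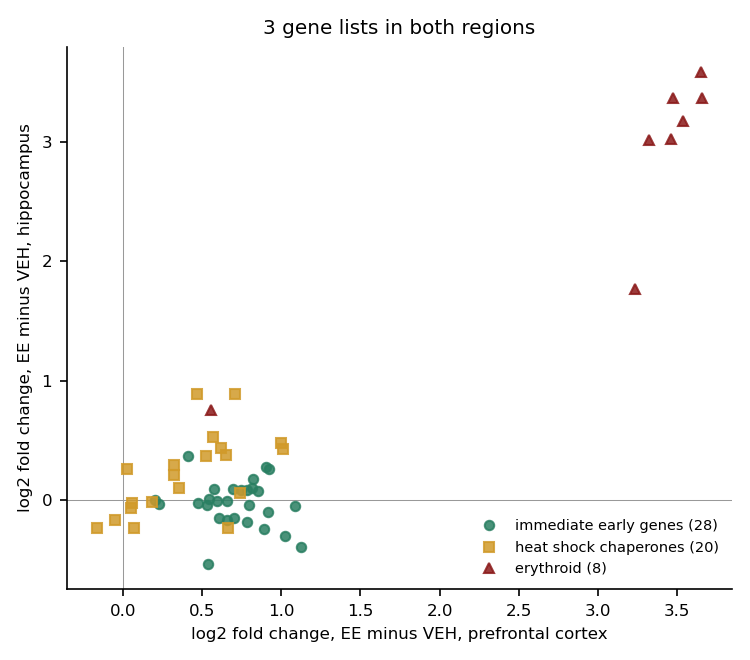
Log2 fold change of EE minus VEH in the PFC (horizontal) and the HC (vertical) for the 28 immediate early, 20 heat shock and 8 erythroid genes tested. Erythroid genes lie above 0 on both axes, while immediate early genes lie above 0 in the PFC with a median of 0.72 and around 0 in the HC with a median of -0.02.

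Stress itself was compared in a separate table of PFC libraries, CUMS against NAIVE (2 libraries each), which shares no library with EE or VEH. Of the 20 leading genes of EE against VEH, 19 were measured there, and 6 of them (31.6%) had the opposite sign under CUMS, set against 51.2% of all 13630 genes measured in both tables. The 19 include several globin genes, which are not independent of each other. Over the genes at an unadjusted p under 0.05 in EE against VEH, 305 of 623 (49%) had the opposite sign, near the share of all genes. The immediate early list had a median log2 fold change of 0.22 and the erythroid list of 1.08 for CUMS minus NAIVE in that table, beside 0.72 and 3.47 for EE minus VEH. Neutrophil and monocyte medians there were -1.02 and -0.56, beside 1.39 and 1.28 for EE minus VEH. Astrocyte genes had a median of 2.57, endothelial and mural genes of 2.05 and oligodendrocyte genes of 0.02 for CUMS minus NAIVE. The part of such cells in the CUMS values was not tested. For Hbb-bs the CUMS minus NAIVE value was 1.241 ± 0.751 (SE, edgeR adjusted p 0.505), and for Il1a it was 0.47 ± 0.26 (edgeR adjusted p 0.456).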

How the data were processed

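The data were gene counts deposited by the authors. Per the submitters' processing notes, Trimmomatic 0.36, STAR 2.6.1b, Picard 2.17.1, featureCounts 1.5.3 and DESeq2 1.24.0 were used with mm10/GRCm38. The annotation release, strand setting and duplicate handling are not given in the sources used here. All 12 enrichment libraries (4 groups, 2 regions) were fitted with edgeR 4.0.16 (TMM, glmQLFit with robust estimation, glmQLFTest, 1 mean per group), and contrasts were adjusted by Benjamini-Hochberg over 15019 genes. List levels are mean log2 CPM with a prior count of 2. DESeq2 1.42.0 (R 4.3.3) was an alternative. The scripts were tested on simulated data. Symbols and positions came from GENCODE M21, found for 55154 of 55421 identifiers, and promoters from RefSeq (GRCm38.p6). Figures used Python 3.11.15 and matplotlib 3.10.9.

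The genes named are the 20 of smallest p, up to 4 per list by p, others that separated the groups where a list's count is spelled out, and 9 microglial, cytokine and stress genes. Members and lists were chosen with earlier results of these data known. In the PFC, libraries with the same number in EE and VEH deviated together (r = 0.377, 0.218 and 0.233), each above 0.1, whereas in the HC r was -0.258, -0.123 and -0.056. The PFC bound was met, so the numbers were treated as pairs in an alternative. This pairing comes from the data, not the labels. Replicates of a group differed by more than sampling noise. A few genes that these rules would name are not reported here.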

Additional observations from a re-analysis of the deposited data

How the results depend on the processing

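The count of 0 genes called between EE and VEH in the PFC was the same with DESeq2 size factors, no filter on low counts, filterByExpr, the 6 PFC libraries fitted alone and the replicate number as a block. DESeq2's Wald test called 17 genes, 13 higher and 4 lower in EE. Leaving out 1 library gave 0 to 3 called genes, with 0 to 3 higher and 0 lower. Leaving out EE 1 and VEH 1 together, chosen after seeing the data, gave 1 gene, higher in EE. The difference between regions gave 0 genes under every setting run. The replicate block changed no call. With 1 library left out, list medians ranged from 2.68 to 3.86 for erythroid, 0.51 to 0.91 for immediate early, 0.31 to 0.51 for heat shock and -0.69 to 0.19 for cytosolic ribosomal genes. DESeq2 size factors moved the median log2 fold change of all genes by -0.01. 

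Signs turned for few of the named genes, none of them called. With 1 library left out, log2 fold changes ran from -0.183 to 0.014 for Cx3cr1, -0.225 to 0.050 for Tmem119, -0.093 to 0.070 for Itgam, -0.090 to 0.249 for Fkbp5, -0.327 to 0.168 for Igf1 and -0.777 to 0.148 for Nsg2. Without EE 1 and VEH 1 together, Itgam was -0.060 and Cttn 0.014, and with no filter Itgam was -0.0022. With 3 libraries a group, differences below the spread of single libraries were not resolved.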
